A study of Mus musculus with 6 samples.

Results

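The 8 genes described here encode the early growth response factors Egr1, Egr2 and Egr3, their corepressors Nab1 and Nab2, and the orphan nuclear receptors Nr4a1, Nr4a2 and Nr4a3. They were taken as a family of factors and corepressors and were chosen from a comparison of the same 6 arrays in which Egr1 and Nr4a1 stood far below the control, so their differences between genotypes are given as a description. A probe set was kept when the array annotation gave it exactly 1 symbol and that symbol was a member, which left 12 probe sets for the 8 genes. The array holds 20380 mouse probe sets with 1 symbol, for 12393 genes, and 22626 mouse probe sets in all.

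Total RNA from lungs of mouse embryos at embryonic day 18.5 (E18.5) was hybridised to 3-prime expression arrays, with 3 arrays for Igf1-/- embryos and 3 for Igf1+/+ embryos. The Igf1-/- embryos lack insulin-like growth factor 1 throughout the body because both copies of Igf1 were inactivated, the Igf1+/+ embryos carry both intact copies, and all came from heterozygous parents on a C57BL/6J background. No agent was given. According to the study's methods, pups were delivered by C-section and helped to breathe before the lungs were taken, and how each pup breathed is not recorded by array, so breathing and genotype cannot be told apart. The labels speak of pooled lungs and the methods of 3 separate samples, so the spread between arrays may be that of animals or of pools. The values are log2 expression values (RMA) as deposited, and a log2 fold change is the Igf1-/- mean minus the Igf1+/+ mean, with its standard error (SE) from limma. A probe set is counted as passing the test at an adjusted p under 0.10 over all mouse probe sets.

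EGR proteins are zinc finger transcription factors that bind GC-rich sites, and their genes are switched on within minutes when growth factors or mechanical stress activate MAP kinases, through serum response factor and its ternary complex partners. NAB proteins bind a repression domain of Egr1, Egr2 and Egr3 and bring in a chromatin remodelling and deacetylase complex, and Nab2 is itself an EGR target, which closes a feedback loop. NR4A receptors act without a classical ligand, their genes answer to cAMP and calcium through cAMP response elements (CREs) as well as to growth factors, and Nr4a1 and Nr4a2 can pair with retinoid X receptors.

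The 250 bases before the transcript start of the 3 NR4A genes are shown because these genes differed widely from one another in the comparison of genotypes while their promoters shared one feature. Sequences are from RefSeq for the GRCm38.p6 assembly, which held an entry for 6 of the 8 members (10 entries); Egr1 and Egr3 were not matched. Each is printed 5′ to 3′ on the strand of the gene, Nr4a1 at chr15:101266596-101266845 (plus strand), Nr4a2 at chr2:57124004-57124253 (minus strand) and Nr4a3 at chr4:48045055-48045304 (plus strand). Capitals mark the CRE half-site TGACG, or CGTCA where it lies on the other strand.
Nr4a1: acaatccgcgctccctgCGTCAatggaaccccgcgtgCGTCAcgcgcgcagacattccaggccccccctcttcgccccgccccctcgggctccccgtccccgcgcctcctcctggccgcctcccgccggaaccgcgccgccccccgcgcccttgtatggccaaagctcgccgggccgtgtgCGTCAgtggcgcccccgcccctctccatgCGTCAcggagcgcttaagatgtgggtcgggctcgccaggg
Nr4a2: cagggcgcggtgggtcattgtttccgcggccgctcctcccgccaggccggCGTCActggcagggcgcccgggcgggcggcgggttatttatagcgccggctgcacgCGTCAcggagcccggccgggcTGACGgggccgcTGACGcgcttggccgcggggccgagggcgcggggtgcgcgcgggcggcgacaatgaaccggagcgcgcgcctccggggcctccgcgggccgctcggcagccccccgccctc
Nr4a3: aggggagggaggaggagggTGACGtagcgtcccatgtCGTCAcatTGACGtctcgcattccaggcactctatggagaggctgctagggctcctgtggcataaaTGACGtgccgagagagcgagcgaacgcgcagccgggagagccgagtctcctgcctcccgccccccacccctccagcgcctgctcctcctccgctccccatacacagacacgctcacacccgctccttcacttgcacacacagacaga

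Each of the 3 windows held 4 half-sites. Among 32851 RefSeq promoter windows of the same length, 17.8% held at least 1 half-site on either strand and 0.137% (45 windows) held 4 or more. In Nr4a1 all 4 lay on the opposite strand, beginning 233, 213, 69 and 40 bases before the start. In Nr4a2 they began 200, 144, 123 and 111 bases before the start, with 2 on each strand. In Nr4a3 they began 231, 213, 205 and 147 bases before it, with 3 on the strand of the gene. The full CRE, TGACGTCA, which contains the half-site on both strands, was in none of the members' windows and in 1.55% of all windows. The CArG box, the site of serum response factor, was searched as CC, a run of A or T, and GG, with no mismatch allowed. It was in 4 of the 5 Egr2 entries, in no other matched member, and in 1.47% of all windows. The Egr2 windows that start at 67537619, 67537620 and 67537680 on chromosome 10 overlap, so they may hold the same box. The EGR site GCGTGGGCG occurred 2 times in the Nab1 window, 0 times in the other matched members, and in 0.536% of all windows. These matches describe letters in a window and were found after the expression values were known.

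**Figure D1:**
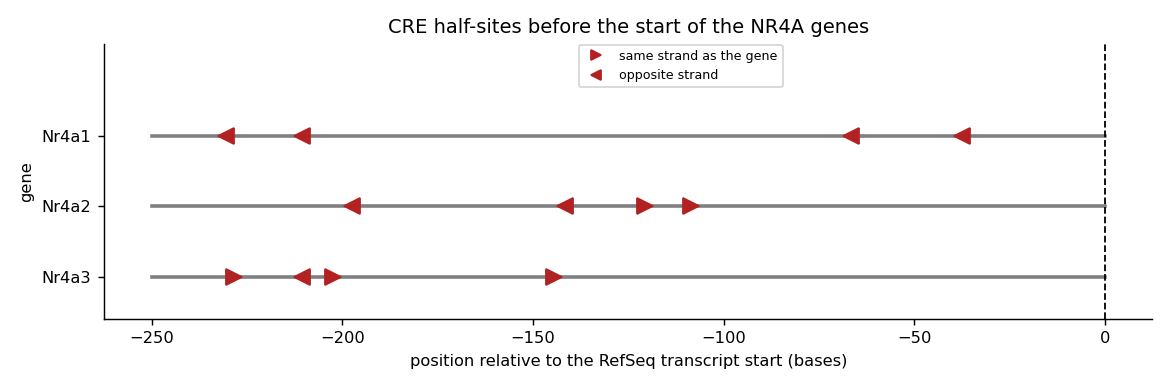
Position of each CRE half-site (arrowheads, pointing along its strand) in the 250 bases before the RefSeq transcript start of Nr4a1, Nr4a2 and Nr4a3, with the horizontal axis in bases relative to the start. Each gene has 4, and the nearest to the start is in Nr4a1, 40 bases away.

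Of the 12 member probe sets, 2 passed the test, those of Egr1 and Nr4a1, and both were lower in the Igf1-/- lungs. Over all mouse probe sets 126 of 22626 passed (0.557%), 89 of them lower and 37 higher, and nothing is read from the members' count because the same contrast had been seen when they were chosen. The groups did not overlap at 3 member probe sets that were lower in the Igf1-/- lungs, against 7.26% of all probe sets, and at 2 that were higher, against 10.8% of all. At the other 7 the groups overlapped. The median log2 fold change was 0.00055 over the members and 0.03 over all mouse probe sets. These are whole lungs, in which fewer cells of a type and less RNA per cell cannot be told apart.

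**Figure D2:**
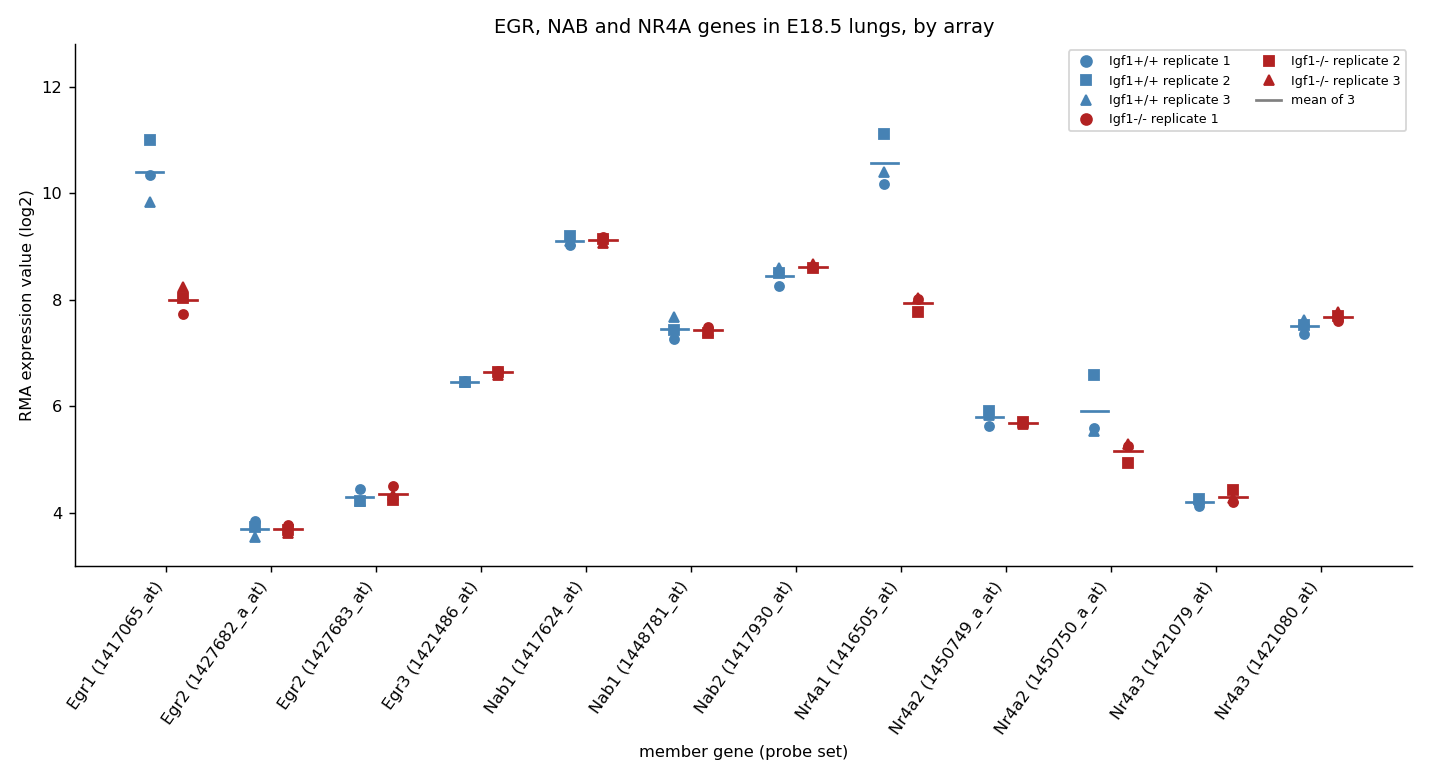
RMA expression value (log2) of the 12 member probe sets on each array, Igf1+/+ in blue and Igf1-/- in red, with a line at the mean of 3 and a different symbol for each replicate. Egr1 and Nr4a1 separate by more than 1.5 log2 units between the closest arrays, while the other members, apart from Nr4a2 at 1450750_a_at, lie close together.

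Among the EGR factors, Egr1, the broadly expressed growth factor-induced member, had log2 values of 7.73, 8.03 and 8.24 on the Igf1-/- arrays and of 10.35, 10.99 and 9.83 on the Igf1+/+ arrays (1417065_at). Every Igf1-/- value lay below every Igf1+/+ value, with a gap of 1.59 between the closest arrays. The means were 8.00 ± 0.26 and 10.39 ± 0.58 (SD, n = 3 each), a log2 fold change of −2.39 (SE 0.26, 95% interval −2.97 to −1.81), or 5.23-fold lower (3.50 to 7.83). By size of decrease Egr1 ranked 5 of 22626 mouse probe sets.

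Egr2, known for its role in Schwann cell myelination and hindbrain patterning, was measured by a pair of probe sets, both among the dimmer ones of the array. At 1427682_a_at the log2 values were 3.77, 3.67 and 3.62 on the Igf1-/- arrays against 3.84, 3.73 and 3.54 on the Igf1+/+ arrays. At 1427683_at they were 4.50, 4.24 and 4.33 against 4.44, 4.22 and 4.23. The groups overlapped at both, with log2 fold changes of −0.01 (SE 0.09, 95% interval −0.23 to 0.20) and 0.06 (SE 0.10, −0.17 to 0.28). These intervals leave out a difference of the size seen for Egr1 at these probe sets, although a dim probe set may report little of a change in its mRNA.

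Egr3, which acts in muscle spindle and lymphocyte development, lay the other way from Egr1. Its log2 values were 6.67, 6.65 and 6.59 on the Igf1-/- arrays and 6.47, 6.46 and 6.45 on the Igf1+/+ arrays (1421486_at). All 3 Igf1-/- values were above all 3 Igf1+/+ values, by 0.12 at the closest. The log2 fold change was 0.18 (SE 0.07, 95% interval 0.02 to 0.33), or 1.13-fold higher (1.01 to 1.26), and it did not pass the test. Egr4, the remaining EGR factor and no member, was looked at after the others; it read 6.05, 6.21 and 6.06 against 5.87, 5.95 and 6.13 (1449977_at), a log2 fold change of 0.12 with groups that overlapped.

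The NAB corepressors showed no difference of the size seen for Egr1. Nab1 had log2 values of 9.17, 9.13 and 9.06 on the Igf1-/- arrays and of 9.03, 9.19 and 9.09 on the Igf1+/+ arrays at 1417624_at, and of 7.50, 7.38 and 7.41 against 7.26, 7.43 and 7.68 at 1448781_at. The groups overlapped at both, and the log2 fold changes were 0.02 (SE 0.08, 95% interval −0.16 to 0.19) and −0.03 (SE 0.11, −0.27 to 0.22). Nab2, the corepressor whose gene is an EGR target, read 8.61, 8.59 and 8.66 against 8.26, 8.50 and 8.59 (1417930_at). The Igf1-/- values were the higher ones, but the lowest of them and the highest Igf1+/+ value were 0.00069 apart, so the groups touched. Its log2 fold change was 0.17 (SE 0.10, 95% interval −0.05 to 0.39), above 0 where Egr1 was far below it.

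Among the NR4A receptors, Nr4a1 (Nur77), an immediate-early gene with roles in T cell selection, monocytes and metabolism, showed the largest difference of the family. It had log2 values of 8.02, 7.77 and 8.04 on the Igf1-/- arrays and of 10.17, 11.11 and 10.40 on the Igf1+/+ arrays (1416505_at). No Igf1-/- array came within 2.13 of any Igf1+/+ array. The means were 7.94 ± 0.15 and 10.56 ± 0.49 (SD, n = 3 each), a log2 fold change of −2.62 (SE 0.21, 95% interval −3.09 to −2.14), or 6.13-fold lower (4.41 to 8.52). It ranked 2 of 22626 by size of decrease.

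Nr4a2 (Nurr1), known best from midbrain dopamine neurons, gave different pictures at its probe sets. At 1450750_a_at it read 5.25, 4.93 and 5.29 on the Igf1-/- arrays and 5.60, 6.59 and 5.53 on the Igf1+/+ arrays. The groups did not overlap, but they were 0.25 apart at the closest and Igf1+/+ replicate 2 stood well above the rest. The log2 fold change was −0.75 (SE 0.25, 95% interval −1.32 to −0.18), or 1.69-fold lower (1.13 to 2.50), which did not pass the test. Without Igf1+/+ replicate 2 it was −0.41. At 1450749_a_at the values were 5.68, 5.70 and 5.67 against 5.63, 5.92 and 5.83, the groups overlapped, and the log2 fold change was −0.11 (SE 0.09, 95% interval −0.31 to 0.09).

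Nr4a3 (Nor1), the receptor closest in function to Nr4a1 in blood cells, did not share its direction. At 1421080_at its log2 values were 7.59, 7.69 and 7.77 on the Igf1-/- arrays and 7.36, 7.52 and 7.61 on the Igf1+/+ arrays. At 1421079_at they were 4.21, 4.42 and 4.28 against 4.13, 4.25 and 4.24. The groups overlapped at both, with log2 fold changes of 0.18 (SE 0.09, 95% interval −0.02 to 0.39) and 0.09 (SE 0.08, −0.10 to 0.28). The 3 receptor genes, each with 4 half-sites in the windows printed above, spanned log2 fold changes from −2.62 to 0.18. Whether the half-sites bear on these values was not tested.

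**Figure D3:**
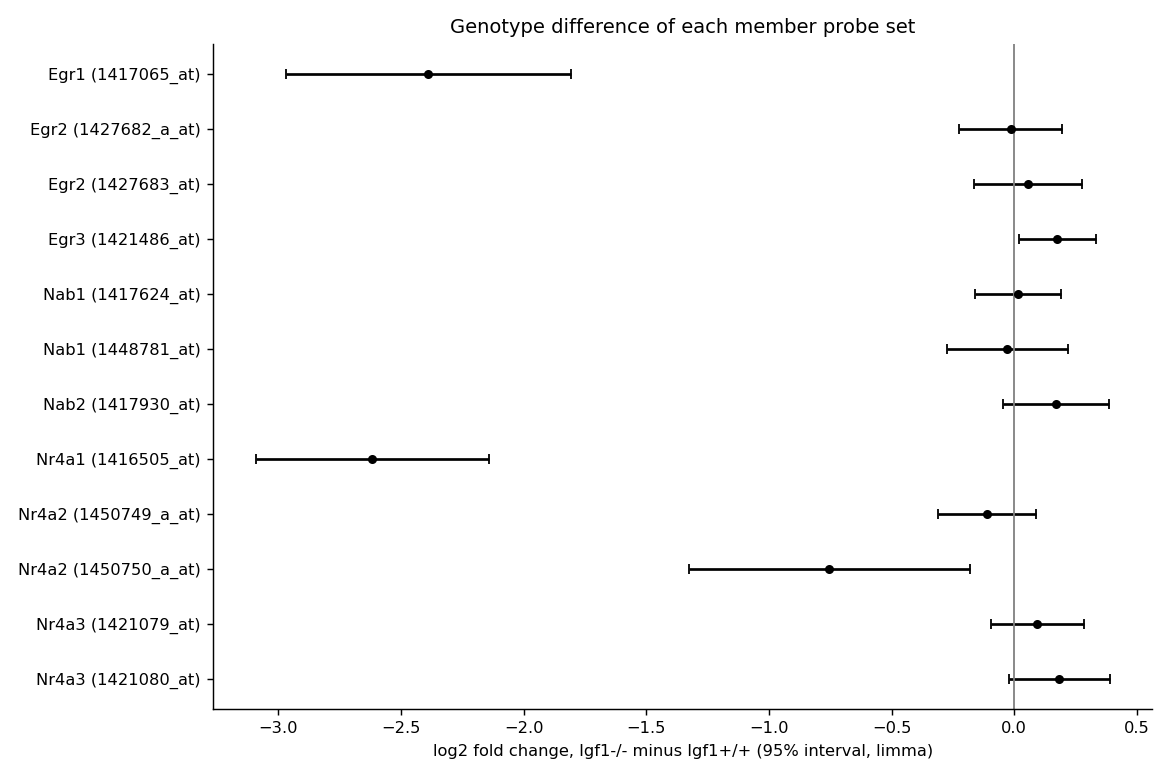
Log2 fold change of each member probe set (Igf1-/- minus Igf1+/+, points) with its 95% interval from limma. The intervals of Egr1, Nr4a1 and one Nr4a2 probe set (1450750_a_at) lie below 0, that of Egr3 lies just above it, and the other 8 include 0.

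The members that differed most also varied most among the Igf1+/+ lungs. The range over 3 arrays was 1.16 in Igf1+/+ and 0.51 in Igf1-/- lungs for Egr1, 0.94 and 0.26 for Nr4a1, and 1.06 and 0.36 for Nr4a2 at 1450750_a_at. Igf1+/+ replicate 2 was the highest of its genotype for all of these, by 0.60, 0.55 and 0.68 above the mean of that genotype. Once each genotype's mean was taken off, Pearson's r over the 6 arrays was 0.96 between Nr4a1 and Nr4a2 (1450750_a_at), 0.80 between Egr1 and Nr4a2 (1450750_a_at), and 0.66 between Egr1 and Nr4a1. The same r with Nr4a1 was also high for members whose groups overlapped or touched, at 0.81 for Nr4a2 (1450749_a_at), 0.73 for Nab1 (1417624_at) and 0.52 for Nab2. It was 0.33 between Nr4a1 and Nr4a3 (1421080_at) and −0.26 between Egr1 and Egr3. These are descriptions over 6 arrays with 4 degrees of freedom, in which the single array Igf1+/+ 2 weighs heavily, and no test is given for them. Without removal of the means r was 0.98 between Egr1 and Nr4a1, and the difference between genotypes sets most of that value.

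**Figure D4:**
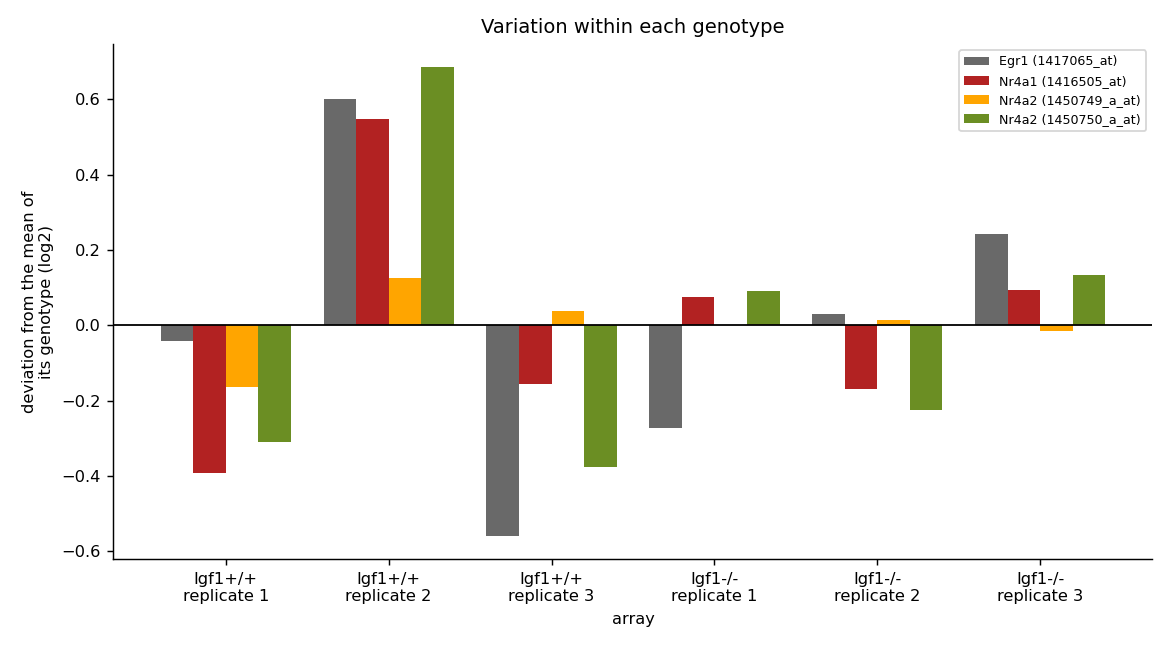
Deviation (log2) of Egr1, Nr4a1 and both Nr4a2 probe sets from the mean of their genotype on each array. All 4 bars are above 0 in Igf1+/+ replicate 2, and the spread is smaller in the Igf1-/- arrays.

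The genes whose pattern was most like that of Egr1 and Nr4a1 were sought among 7036 genes with 1 probe set each and a mean above the array median, against the mean of both over the 6 arrays. Highest were Mal (r = 0.995), Fos (0.989), Scgb3a1 (0.983), Ccn1 (0.982) and Robo1 (0.982). The arrays are 3 against 3, so these values mostly reflect a shared difference between genotypes, and the sizes of that difference were unlike: the log2 fold change was −3.32 for Fos, −2.43 for Ccn1, −1.40 for Scgb3a1, −0.31 for Robo1 and −0.26 for Mal. With the genotype means taken off, Cops3 (r = 0.998), Mpv17 (0.992), Tgfb2 (0.985), Rxylt1 (0.982) and Fam136a (0.981) came first, again over 6 arrays. These are the highest values picked from 7036 genes, and the single array Igf1+/+ replicate 2 weighs heavily in them. Whether these genes share any control with Egr1 and Nr4a1 was not tested.

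Immediate-early genes outside the family were lower alongside Egr1 and Nr4a1. Of 24 listed, 23 were measured, 20 of them below and 3 above 0, and 11 fell while none rose at an adjusted p under 0.10 in limma. Over all 12393 genes at their brightest probe set, 0.452% fell and 0.145% rose. The list's median log2 fold change was −0.64, against 0.03 over all genes. Fos, the AP-1 subunit, read 8.46, 8.08 and 8.09 on the Igf1-/- arrays and 11.54, 12.15 and 10.90 on the Igf1+/+ arrays, a log2 fold change of −3.32 (SE 0.27, limma adjusted p = 0.00179). Like Egr1 and Nr4a1 it was highest in Igf1+/+ replicate 2. Ccn1 (listed as Cyr61), a matricellular protein gene, read 8.77, 8.89 and 9.06 against 11.28, 11.44 and 11.29, a log2 fold change of −2.43 (SE 0.09, limma adjusted p = 2.6e-05). Dusp1, a MAP kinase phosphatase, fell by 1.61 (SE 0.16, limma adjusted p = 0.00763) and Jun, the AP-1 partner of Fos, by 0.70 (SE 0.07, limma adjusted p = 0.00947). Junb, Ier2, Ier3, Atf3, Btg2, Zfp36 and Klf6 also fell. The count ran from 5 (without Igf1-/- replicate 1 or 3) to 14 (without Igf1+/+ replicate 3) as each array was left out. The list was drawn up with such decreases already known from these arrays, so its count is no independent evidence.

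None of the listed regulators upstream of EGR and NR4A genes passed the test at the mRNA level. Of 28 listed (serum response factor and its partners, CREB and MEF2 factors, and kinases of the MAP kinase path), 21 were measured, with 8 above and 13 below 0. None passed in limma or by the SAM statistic, and the median log2 fold change was −0.02. An unadjusted p under 0.05 was reached by 3, all lower without overlap of the groups and named after their values were seen: Srf, serum response factor itself (log2 fold change −0.23), Elk3, a ternary complex partner (−0.25), and Map2k1, a MAP kinase kinase (−0.22). Such p values were common on these arrays. Among 22626 mouse probe sets an unadjusted limma p of 0.0325 ranked only 2077 and one of 0.0724 ranked 3706. Nothing is therefore read from these 3. The brightest were Mef2a, a MEF2 factor (log2 fold change 0.02, limma adjusted p = 0.939), and Elk4, a partner of serum response factor (−0.04, limma adjusted p = 0.867). Kinase activity is not measured by these arrays.

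Of 28 known or proposed EGR target genes, 23 were measured, 10 above and 13 below 0, with a median log2 fold change of −0.03. An unadjusted p under 0.05 was reached by 10, of which 7 were lower (Pdgfa, F3, Icam1, Thbs1, Fn1, Vegfa and Pmp22) and 3 higher (Igf2, Cd44 and Cbx3). The share of all genes at that level was not counted. Over all 22626 mouse probe sets an unadjusted limma p of 0.0325 ranked 2077. Passing the test after adjustment were 2 at their brightest probe sets, both lower, and 3 genes when any probe set of a gene was allowed. Over all 12393 genes at their brightest probe set, 0.452% fell and 0.145% rose. F3, tissue factor, had a log2 fold change of −0.87 (SE 0.16, limma adjusted p = 0.0896), and Icam1, a leukocyte adhesion molecule, of −0.54 (SE 0.09, limma adjusted p = 0.0665). The list includes Nab2, which did not pass. The count of 2 depended on single arrays, and was 0 without any one of the Igf1-/- arrays, 1 without Igf1+/+ replicate 1 or 2, and 4 without Igf1+/+ replicate 3.

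Of 19 retinoid X receptors and NR4A target genes, 17 were measured, 14 above and 3 below 0, with a median log2 fold change of 0.10. None passed in limma or by SAM and none had an unadjusted p under 0.05. Many of these genes were dim in lung. The list's mean level was 6.25 to 6.30 on the Igf1-/- arrays and 6.19 to 6.20 on the Igf1+/+ arrays. The median over all mouse probe sets was 6.88. Pdcd1, Foxp3 and Cyp11a1, for example, had Igf1+/+ means of 3.72, 3.89 and 4.14. A dim probe set may report little of a change, so the lack of calls says little about NR4A targets. Rxrb, a partner receptor, had a log2 fold change of 0.05 (limma adjusted p = 0.836) and Vcam1, an adhesion molecule, of 0.00 (limma adjusted p = 0.989). Of 16 NAB partners and other corepressors, 13 were measured, 7 above and 6 below 0, with a median of 0.03. None passed in limma or by SAM and 1 had an unadjusted p under 0.05. The histone-binding subunits Rbbp4 and Rbbp7 had log2 fold changes of −0.03 and −0.06 (limma adjusted p = 0.931 and 0.760).

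**Figure D5:**
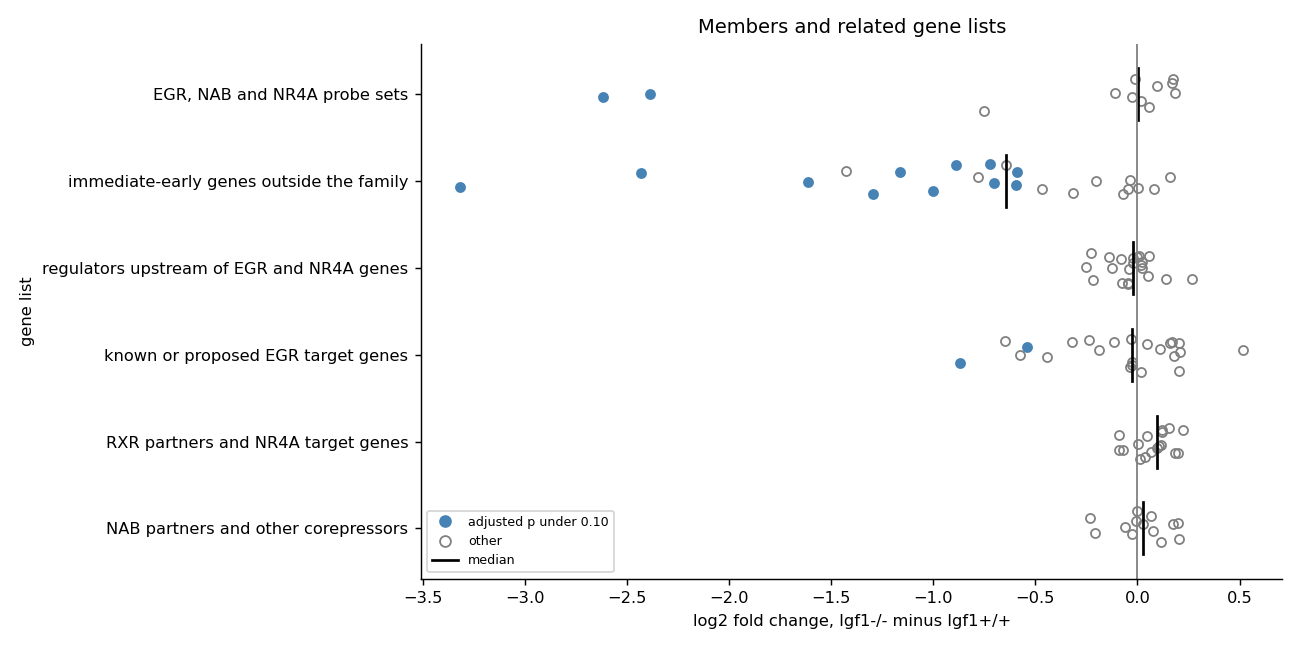
Log2 fold change (Igf1-/- minus Igf1+/+) of the 12 member probe sets and of the genes of each list at their brightest probe set, filled where the adjusted p was under 0.10, with a bar at the median. The 2 filled members lie at −2.39 and −2.62 and the 11 filled immediate-early genes (the smallest change that of Klf6) at −0.59 or lower, and the lists of regulators, retinoid X receptor partners and corepressors centre near 0.

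Other features of the arrays moved with genotype or with single arrays. The lung labels matched the markers, with Sftpc, the surfactant protein C gene, at a mean of 14.43 in Igf1-/- and 14.39 in Igf1+/+ lungs. All 8 lung epithelial markers were measured, with a mean level of 10.96 to 11.23 against 11.16 to 11.32, 4 of them above and 4 below 0. Of these only Aqp5, a water channel of alveolar cells, passed, and fell by 0.98 (SE 0.12, limma adjusted p = 0.0173). The log2 fold change was 0.30 for Sftpb, 0.25 for Sftpa1 and 0.22 for Nkx2-1, against −0.31 for Pdpn, −0.28 for Ager and −0.26 for Scgb1a1. All 7 endothelial markers lay at a mean of 9.71 to 9.87 against 9.83 to 9.97, and none passed. Markers of macrophages and monocytes (7 of 7 measured) had a mean of 8.60 to 8.80 on the Igf1-/- arrays and 8.43 to 8.56 in the Igf1+/+ lungs, T cell markers (5 of 7 measured) 4.96 to 5.03 against 4.80 to 4.90, and Schwann cell and nerve markers (4 of 7 measured) 5.92 to 6.09 against 5.89 to 5.96. None of these markers passed. Of the macrophage and monocyte markers 6 lay above and 1 below 0, the latter being Lyz2, the brightest (log2 fold change −0.33). All 5 T cell markers lay above 0, and of the Schwann cell and nerve markers 3 lay above and 1 below. Red cell markers (4 of 6 measured) had a mean of 6.23 to 6.37 against 6.83 to 6.93. Slc4a1, an anion exchanger, and Alas2, a heme synthesis enzyme, fell (log2 fold changes −1.64 and −0.87, limma adjusted p = 0.000146 and 0.0754). Hba-a1, a globin gene, and Epb42, a membrane skeleton gene, lay at 0.12 and 0.10 and did not pass. Their probe sets were dim, with means of 4.06 and 4.46 in Igf1-/- and 3.93 and 4.37 in Igf1+/+ lungs. The median over all mouse probe sets was 6.88, so these flat values say little about red cells. The part of any of these cell types in the member differences was not tested. Cardiac muscle markers (6 of 6 measured) stood at 10.17 in Igf1-/- replicate 3 and at 8.46 to 8.69 on the other 5 arrays; without that array Egr1 had a log2 fold change of −2.51 and Nr4a1 of −2.66. Igf1 itself did not pass at any of its 3 probe sets. At the brightest, 1437401_at, it read 8.87, 8.99 and 9.38 against 9.28, 9.85 and 9.65, with overlapping groups and a log2 fold change of −0.51 (limma adjusted p = 0.267). At 1419519_at every Igf1-/- value (6.15, 6.33 and 6.46) was below every Igf1+/+ value (6.59, 7.12 and 6.97), a log2 fold change of −0.58 (limma adjusted p = 0.152). At 1452014_a_at it was −0.42 (limma adjusted p = 0.327) and the groups overlapped. No source used here places these probe sets relative to the inactivated part, so they check little about the labels.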

How the data were processed

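RNA of 6 lung samples, 3 Igf1-/- and 3 Igf1+/+, was measured on Affymetrix MOE430A 2.0 arrays. The deposited values are on a log2 scale and were made by the authors with RMA, which corrects background, equalises the distributions of the arrays by quantiles and summarises each probe set. That run took in 12 arrays, of which 6 were lung and 6 cochlear, with an RMA version not given in the sources used here. Because quantile normalization gives the arrays a shared distribution, a change common to most genes would be removed. Groups and replicate numbers came from the labels. Of 22690 rows, 64 control probe sets were left out, and 691 probe sets with several symbols and 1555 with none were kept in the fit but not used as genes. No detection calls or depths apply, and the number of arrays limits the precision.

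A model with genotype as its only term was fitted to all 22626 mouse probe sets with limma 3.58.1 (lmFit, eBayes) in R 4.3.3, with Benjamini-Hochberg adjustment over all of them, a call level of 0.10 and 95% intervals. The fit was tested on simulated data. A gene in a list was read at its probe set with the highest mean. The members, lists, motifs and tests were chosen with earlier results of these data known. Named were all members, the 5 genes most like Egr1 and Nr4a1 by each measure, from each list the 4 (or fewer) lowest adjusted p values under 0.10, otherwise the 2 brightest genes, and Igf1. Egr4, further marker genes and genes given for an unadjusted p under 0.05 were named after their values were seen. Promoter windows were searched with Python 3.11.15. Alternatives were centring on the median, the replicate block, renewed quantile normalization of the lung arrays alone, leaving out dim probe sets, a variance trend with robust estimates, array weights, the SAM statistic that the study's methods name, levels of 0.20 and 0.05, any probe set of a gene, and leaving out each array. P values measure only the spread between these arrays.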

Additional observations from a re-analysis of the deposited data

How the results depend on the processing

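Egr1 and Nr4a1, and no other member probe set, passed under every alternative, so that the members' count stayed at 2. Their log2 fold changes ran from −2.67 to −2.09 and from −2.81 to −2.34 over the alternatives. Nr4a2 at 1450750_a_at ran from −1.01 with array weights to −0.41 without Igf1+/+ replicate 2. Of 150 member values under an alternative, 150 moved by less than the spread between arrays, but most could not have done otherwise. The replicate block, leaving out dim probe sets, the variance trend and SAM keep the log2 fold change by construction. Leaving out 1 of 3 arrays cannot move it by that spread. Only the renewed normalization, the centring and the array weights could have, so the count says little about stability. Values near 0 at both probe sets of Nab1 and at those of Egr2 changed sign in some. Leaving out dim probe sets removed 6 of the 12 member probe sets, which gave no value there.

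Of all probe sets, 126 passed, against 204 with a variance trend and robust estimates, 628 with array weights, 588 at an adjusted p under 0.20 and 54 at 0.05. Leaving out each array gave 45 (without Igf1-/- replicate 3) to 710 (without Igf1+/+ replicate 3). Of the immediate-early genes, 11 passed, against 6 at 0.05 and 5 to 14 without 1 array; 5 was reached without Igf1-/- replicate 1 or 3. Among EGR targets the 2 became 3 with any probe set of a gene, 4 with the trend, 6 with array weights and 1 by SAM. They became 6 at 0.20, 0 at 0.05 and 0 to 4 without 1 array (0 without any one of the Igf1-/- arrays). Of the regulators 0 passed, or 0 to 1 without 1 array. The counts for NR4A targets and NAB partners stayed at 0.

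The replicate block gave 138 probe sets and the same 2 members. Deviations of arrays with the same number correlated at −0.04, −0.23 and −0.14, and not every array correlated best with its own number, so the numbers were not taken to pair the arrays. With 3 arrays a genotype, small differences such as those of Egr3 and Nab2 (0.18 and 0.17 on the log2 scale) did not pass under any alternative that kept them, and dim probe sets such as those of Egr2 may understate a change.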
